A study of Mus musculus with 61 samples.

Results

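WT CD4+ T cells that received a retroviral vector encoding native STAT5B were compared with WT CD4+ T cells that received the empty vector. The members were taken by title, as the WT libraries with the Stat5b vector and no named mutation and the WT libraries with the empty vector, which gave 3 and 3 libraries, 6 of the 61 in the series. The mice were C57BL/6 and 2 months old. Naive cells sorted as CD4+, CD44 low and CD25- from pooled lymph nodes and spleens were activated through the T cell receptor and CD28, transduced, kept in IL-2 for 48 h and sorted again as live CD4+GFP+ cells, so that every library came from cells carrying a vector. WT cells also received STAT5B with Y665H (tyrosine to histidine), Y665F (tyrosine to phenylalanine) or N642H (asparagine to histidine) in its SH2 domain, and these 5 vectors, 3 libraries each, make up the 15 WT libraries that were fitted together. The same 5 vectors were used in Stat5a/b-null CD4+ T cells, in which Cd4-Cre deletes both genes, and all 30 libraries entered the comparison of backgrounds. The genotype label names floxed Stat5a/b for the WT libraries too, so the background was read from the titles. Total RNA depleted of ribosomal RNA was sequenced and counted per gene. The WT cells keep their own Stat5a and Stat5b, and reads from the vector cannot be told apart from reads of the resident gene.

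STAT5B is a transcription factor that waits in the cytoplasm. When IL-2 or a related cytokine binds its receptor, JAK1 and JAK3 phosphorylate STAT5A and STAT5B, which pair and bind DNA elements of the form TTCNNNGAA. In T cells the products of its targets include the feedback inhibitors CIS and SOCS2 and the IL-2 receptor alpha chain, and STAT5 activity is known for T cell growth, regulatory T cell identity and cytokine production. The question here was how far the transcriptome of cells with normal STAT5 responds to more STAT5B.

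The libraries numbered 3 in the labels stood apart. The first principal component of the 6 libraries took 60.7% of their variance and placed both libraries numbered 3 at 30.1 and 36.8, against -29.2 to -8.57 for the other 4. Xist, transcribed from the inactive X chromosome, was at 2026 CPM (TMM-scaled counts relative to the library total) with the empty vector and 2182 CPM with STAT5B in number 3, and at 0.709 to 2.99 CPM in numbers 1 and 2. The Y-linked Ddx3y went the other way, at 0.350 and 0.448 CPM in number 3 and 75.4 to 87.4 CPM in the others. Among all 15 WT libraries, 1149 genes differed between number 3 and the mean of 1 and 2, of which 838 were higher in number 3. Deviations of same-numbered empty-vector and STAT5B libraries from their group means correlated at 0.519 to 0.861, so the number was treated as pairing them. Libraries of different numbers correlated at -0.705 to 0.394. The values above 0 were those between numbers 1 and 2, at 0.258 and 0.394, so these 2 numbers were set apart less clearly than number 3. Results are given without the number and with it as a block. The labels do not say whether numbers 1 to 3 are separate animals, so p-values measure the spread between these libraries. Number 3 had the Xist and Ddx3y pattern of female cells and numbers 1 and 2 that of male cells, so sex and number 3 cannot be told apart. Depth was 33761977 to 48821084 reads on genes, and T cell markers summed to 5535 to 7177 CPM with the empty vector and 5295 to 5965 CPM with STAT5B, while the highest sum of any of the 8 lists for other cell types was 8.05 CPM. The hemoglobin genes Hba-a1, Hba-a2, Hbb-bs and Hbb-bt had 0 counts in each of the 6 libraries.

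Stat5b (chr11:100780731-100850724, minus strand) checks the labels. It stood at 185, 199 and 203 CPM with the empty vector and at 402, 501 and 546 CPM with the STAT5B vector. All 3 STAT5B libraries were above all 3 empty-vector libraries. The group means were 196 ± 9.23 and 483 ± 73.6 CPM (SD, n = 3 each), so the STAT5B cells held 247% of the control level. An exact two-sided permutation test gave p = 0.1, the smallest that 3 against 3 allows, and the edgeR log2 fold change was 1.30 ± 0.14 (SE, adjusted p = 0.00129, no block). Stat5a, the neighbouring gene for the closely related STAT5A, was at 135, 157 and 169 CPM and at 144, 149 and 174 CPM, and the groups overlapped. In the STAT family list no other member of 7 passed the test.

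Without the block, 2 of 20509 genes were called, with an adjusted p under 0.05 and more than a 2-fold difference (beyond 1 on the log2 scale), a share of 0.00975%, and 555 had an unadjusted p under 0.05. These 2 are Stat5b and H19. Neither was called when the 6 libraries were fitted alone without the block, where their log2 fold changes were 1.30 and 5.65. With a block for the replicate number, 86 genes were called, 0.419% of those tested. Of them 78 rose (0.380%) and 8 fell (0.0390%), and both of the genes called without the block were among them. Of the 86, a residual factor in place of the block called 43 and DESeq2 without the block called 13. Without the fold minimum, 223 genes passed with the block (1.09%), 161 of them higher (0.785%) and 62 lower (0.302%). Below, "rose" and "fell" mean an adjusted p under 0.05 in the fit with the block.

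Of the 78 genes called higher, 74 were higher with STAT5B at every number, against 14.9% of all genes tested, and in 33 no STAT5B library overlapped an empty-vector library, against 3.16%. All 8 genes called lower were lower at every number (15.8% of all genes), and 6 of the 8 did not overlap (3.15%). Because these are the values that made the calls, the counts describe the calls and add no test. Of the 78, 54 were also called lower in number 3 than in 1 and 2 over the WT libraries, past the same thresholds, against 1.52% of all genes tested, and 1 was called higher, against 4.09%. The part of sex or source in this was not tested, and neither can be told apart from the number in these libraries. Leaving out both libraries numbered 3 gave 152 calls, among which were 83 of the 86, while leaving out number 1 gave 44 and number 2 gave 26. There were 21 genes that stayed called under each of these 3 removals: Stat5b, H19, Myh11, Sema7a, Pkib, Batf3, Irf8, Egln3, Atf3, Muc1, Hhex, Coro6, Ifitm3, Ntrk3, Car5b, Pde1a, Npsr1, Tmem125 and Gm4926 higher and Pyhin1 and Pydc3 lower.

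H19 (chr7:142575529-142578143, minus strand), an imprinted long noncoding RNA expressed mainly before birth, had the largest rise among the named genes. It was at 0.567, 0.289 and 0.371 CPM with the empty vector and at 30.5, 23.8 and 6.56 CPM with STAT5B. Every STAT5B library exceeded every control, and within numbers the ratio ran from 17.7 in number 3 to 82.2 in number 2. The log2 fold change was 5.65 ± 0.65 (SE, adjusted p = 0.00218) without the block and 5.50 ± 0.41 (adjusted p = 1.61e-07) with it. In bulk RNA, more cells that express a gene and more RNA per cell cannot be told apart. H19 overlaps the microRNA gene Mir675 on its own strand, and reads of H19 and Mir675 cannot be told apart by these counts.

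Myh11 (chr16:14194535-14291372, minus strand), which encodes the myosin heavy chain of smooth muscle, was at 1.42, 1.38 and 0.948 CPM in the controls and at 19.7, 24.1 and 3.76 CPM with STAT5B. The groups did not overlap, and number 3 again held the lowest STAT5B value. Its log2 fold change was 3.44 ± 0.27 (SE, adjusted p = 1.61e-07, block).

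**Figure D1:**
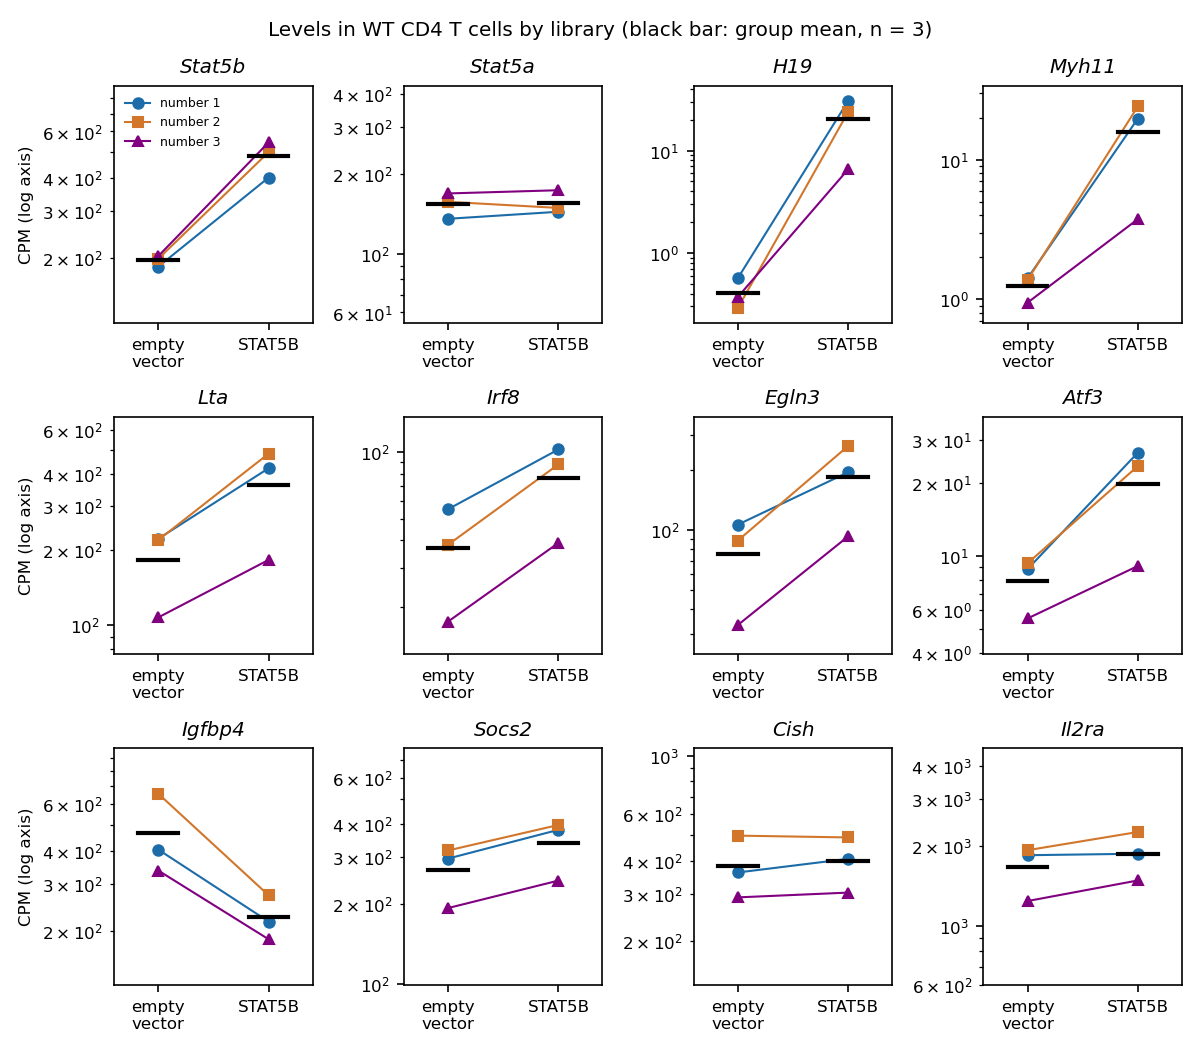
Level of 12 genes in each WT library in CPM on a log axis, with the empty vector and with STAT5B. Lines join libraries with the same number and black bars are group means (n = 3). Stat5b, H19, Myh11, Lta, Irf8, Egln3 and Atf3 were higher with STAT5B at all 3 numbers and Igfbp4 was lower at all 3, while Cish and Stat5a were higher at 2.

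Irf8, Batf3, Hhex and Atf3, which encode transcription factors, were among the genes that rose. Irf8 (chr8:120736358-120756694, plus strand), an interferon regulatory factor best known from myeloid cells and B cells, went from 55.3, 38.3 and 17.3 CPM to 103, 88.0 and 39.0 CPM. The groups overlapped, number 3 was the lowest library in both, and the ratio within numbers was 1.86 to 2.30 (log2 fold change 1.09 ± 0.15, SE, adjusted p = 0.00053, block). Batf3, a basic leucine zipper factor of dendritic cell and T cell differentiation chosen here after its values were seen, went from 8.76, 7.12 and 1.17 CPM to 33.1, 23.5 and 5.31 CPM. Hhex, a homeobox factor of blood progenitors, went from 1.08, 1.00 and 0.618 CPM to 3.79, 3.95 and 2.37 CPM with no overlap, and its ratios at the 3 numbers were within 3.51 to 3.95. Atf3, a stress-induced factor, went from 8.84, 9.35 and 5.54 CPM to 26.6, 23.4 and 9.11 CPM (log2 fold change 1.21 ± 0.15, SE, adjusted p = 7.38e-05, block). Its number 3 library with STAT5B lay below the empty-vector library of number 2. Irf8 overlaps the predicted gene Gm20388 on the same strand.

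Of 22 helper and regulatory lineage factors, 1 rose, against 0.785% of all genes, and 1 fell, against 0.302%. Irf8 rose past the fold minimum, and Id2, an inhibitor of basic helix-loop-helix factors, fell by less than the minimum with a log2 fold change of -0.50 ± 0.11 (SE, adjusted p = 0.0236, block). Foxp3, which defines regulatory T cells, was at 9.78, 9.39 and 5.44 CPM in the controls and at 22.5, 20.8 and 7.43 CPM with STAT5B. It was higher at each number but did not pass the test (log2 fold change 0.99 ± 0.27, SE, adjusted p = 0.104, block). Irf4, a factor of activated T cells, did not overlap between the groups and did not pass either (0.45 ± 0.14 on the log2 scale, adjusted p = 0.178, block).

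T cell cytokine genes were among those that rose. Of 26, 7 rose (Lta, Il3, Il4, Il24, Lif, Ccl3 and Ccl4), against 0.785% of all genes tested, and none fell, and the median log2 fold change was 0.65 against -0.01 over all genes (block). Lta (chr17:35203165-35205351, minus strand), for lymphotoxin alpha, was at 221, 219 and 107 CPM with the empty vector and at 423, 483 and 182 CPM with STAT5B. The groups overlapped through number 3, yet each number showed a ratio of 1.70 to 2.21, and the log2 fold change was 0.95 ± 0.11 (SE, adjusted p = 4.05e-05, block). Its fold lay just under the minimum for a call. Il3, a growth factor for blood progenitors, went from 8.93, 8.66 and 2.29 CPM to 23.7, 25.1 and 4.48 CPM. Lif, an IL-6 family cytokine, went from 145, 147 and 93.0 CPM to 200, 227 and 130 CPM. The chemokine genes Ccl3 and Ccl4 rose by 0.87 ± 0.17 and 0.79 ± 0.15 (log2, SE, block) and were highest in number 3 in both groups. Il4 and Il24 were at 4.57 CPM or less in each library, and Il24 was lower with STAT5B at number 3 (0.206 against 0.136 CPM). Il2 had a log2 fold change of 0.02 and did not pass.

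Cd24a, Sema7a and Pkib were also called higher, and they do not come from a fixed list of such genes. Cd24a, a glycosylated surface protein of immature lymphocytes, went from 2.52, 2.29 and 2.31 CPM to 17.6, 16.7 and 3.87 CPM without overlap. Its ratio was 6.99 and 7.28 at numbers 1 and 2 but 1.68 at number 3. Sema7a, a membrane semaphorin, went from 4.65, 2.94 and 1.92 CPM to 21.5, 28.5 and 4.20 CPM, and Pkib, an inhibitor of protein kinase A, from 1.28, 0.979 and 0.350 CPM to 9.12, 6.43 and 0.739 CPM. Both overlapped between the groups through number 3 and are shown because they stayed called under each removal. The other genes named by size were Trim71, Coro6, Muc1, Fes, Plce1, Dnaaf3, Sema6d, Alox15, Nppc and Gpx3, with log2 fold changes from 1.35 to 3.55 and STAT5B means of at most 5.55 CPM (block). Dnaaf3 overlaps Tnni3 on the same strand, so that reads may be shared.

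**Figure D2:**
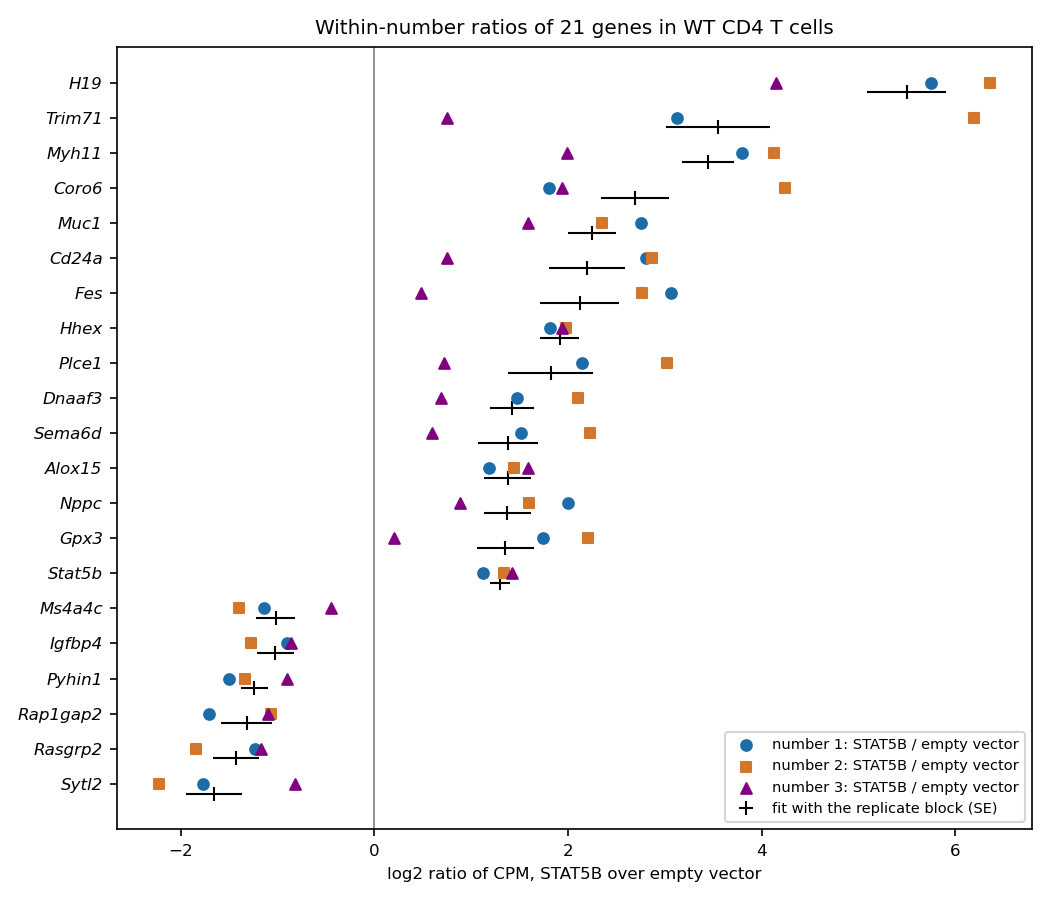
Log2 ratio of CPM, STAT5B over empty vector, at each number for the 21 genes with the largest rises and falls that were called with the block, had a mean of at least 1 CPM and did not overlap between the groups. Crosses are the fitted log2 fold changes with SE. Every point of the 15 raised genes lies above 0 and every point of the 6 lowered genes below 0, and number 3 gave the smallest ratio for H19, Myh11, Cd24a and Fes.

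Igfbp4 (chr11:99041244-99054392, plus strand), which encodes a secreted protein that binds insulin-like growth factors, had the highest level among the 8 genes called lower. It was at 404, 657 and 337 CPM with the empty vector and at 216, 272 and 186 CPM with STAT5B. All 3 STAT5B libraries lay below all controls, at 48.2% of the control mean, with a log2 fold change of -1.03 ± 0.19 (SE, adjusted p = 0.00652, block). Rasgrp2, an activator of the small GTPase RAP1 in lymphocyte adhesion, went from 27.3, 52.5 and 20.7 CPM to 11.6, 14.6 and 9.22 CPM. Sytl2, of vesicle transport, went from 11.2, 22.5 and 11.7 CPM to 3.28, 4.80 and 6.64 CPM, and Rap1gap2, which switches RAP1 off, from 5.21, 6.41 and 3.46 CPM to 1.59, 3.05 and 1.62 CPM. None of these overlapped between the groups.

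Pyhin1 and Pydc3, of the interferon-inducible PYHIN family, both fell, and Pydc3 was named after its values were seen. Pyhin1 was at 16.0, 16.3 and 19.1 CPM with the empty vector and at 5.65, 6.43 and 10.3 CPM with STAT5B, with a log2 fold change of -1.24 ± 0.14 (SE, adjusted p = 3.91e-05, block). PYHIN genes lie in a cluster of near-identical copies, so that the split of reads between them is uncertain. Ms4a4c fell by 1.02 ± 0.20 on the log2 scale, from 44.5, 30.8 and 35.2 CPM to 20.1, 11.7 and 25.7 CPM, and belongs to a multigene family too. Of 22 interferon-induced genes in the list, 2 fell, against 0.302% of all genes, and none rose, with a median log2 fold change of -0.38 against -0.01 over all genes (block). Ddx58, the RNA sensor RIG-I, went from 33.0, 34.8 and 24.1 CPM to 20.1, 20.0 and 16.0 CPM without overlap (-0.70 ± 0.11, SE, adjusted p = 0.0011, block). Irf7, which amplifies type I interferon, went from 10.1, 13.2 and 5.24 CPM to 5.89, 6.55 and 4.01 CPM. Other interferon-inducible genes, outside the list and named after their values were seen, were called higher. Ifitm3, a membrane protein that restricts virus entry, went from 20.1, 41.3 and 8.20 CPM to 51.1, 87.5 and 16.1 CPM (log2 fold change 1.15 ± 0.17, SE, adjusted p = 0.000828, block), and its relative Ifitm1 from 1.16, 2.11 and 1.22 CPM to 3.58, 7.18 and 1.34 CPM. Ubd, a ubiquitin-like protein, was called higher too, at 1.36 CPM or less in each library.

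Of 19 naive and memory homing genes, 4 fell, against 0.302% of all genes, and none rose. S1pr1, the receptor by which T cells leave lymph nodes, went from 77.9, 111 and 52.7 CPM to 45.9, 52.3 and 35.5 CPM without overlap (log2 fold change -0.82 ± 0.16, SE, adjusted p = 0.00762, block). Satb1, a chromatin organiser of thymocytes, and Il6st, the shared receptor chain of IL-6 family cytokines, fell by 0.61 ± 0.11 and 0.62 ± 0.11 (log2, SE, block). The list's median was -0.13. Of the 12 T cell markers, 10 had a log2 fold change below 0 without the block (52.9% of all genes), 7 were lower at every number (15.8% of all genes) and none passed in either fit, and the part of this in the homing genes was not tested. Of 16 checkpoint and costimulatory receptors, Cd27 alone fell, against 0.302% of all genes, from 54.4, 59.8 and 72.9 CPM to 36.4, 39.1 and 53.5 CPM. Of 15 inflammatory cytokine receptors, both IL-12 receptor chains rose, against 0.785% of all genes, and Il27ra fell, against 0.302%. Il12rb2 rose by 0.85 ± 0.13 and Il12rb1 by 0.52 ± 0.11, and Il27ra fell by 0.48 ± 0.11 (log2, SE, block).

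All 18 glycolysis and hypoxia genes had a log2 fold change above 0 without the block (47.1% of all genes) and 16 were higher at every number (14.9% of all genes). Only Egln3 rose, against 0.785% of all genes, none fell, and the list's median was 0.16 (block). Egln3, a prolyl hydroxylase that responds to hypoxia, went from 106, 88.2 and 33.1 CPM to 195, 264 and 92.6 CPM (log2 fold change 1.34 ± 0.16, SE, adjusted p = 5.65e-05, block). Of 12 unfolded protein and amino acid response genes 3 rose, Atf3, Trib3 and Asns, against 0.785% of all genes. Asns, asparagine synthetase, was at 23.6, 20.8 and 16.3 CPM and at 40.0, 31.0 and 24.8 CPM, without overlap. Of 17 survival and growth genes Myc alone rose, against 0.785% of all genes. It went from 192, 163 and 164 CPM to 262, 254 and 198 CPM (log2 fold change 0.46 ± 0.10, SE, adjusted p = 0.0252, block). Tfrc, the transferrin receptor, did not overlap but did not pass (adjusted p = 0.10, block), and Bcl2l11, for the death-promoting BIM, had a log2 fold change of -0.70 ± 0.18 (adjusted p = 0.0659, block). In the 7 genes chosen because other STAT5B constructs moved them in these experiments, Nppc and Rai14 rose, against 0.785% of all genes. That list is no independent evidence. No gene passed among 20 cell cycle genes, 14 of cholesterol synthesis, 18 of MAPK and NFAT feedback or 16 of cytotoxic granules and NK receptors.

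**Figure D3:**
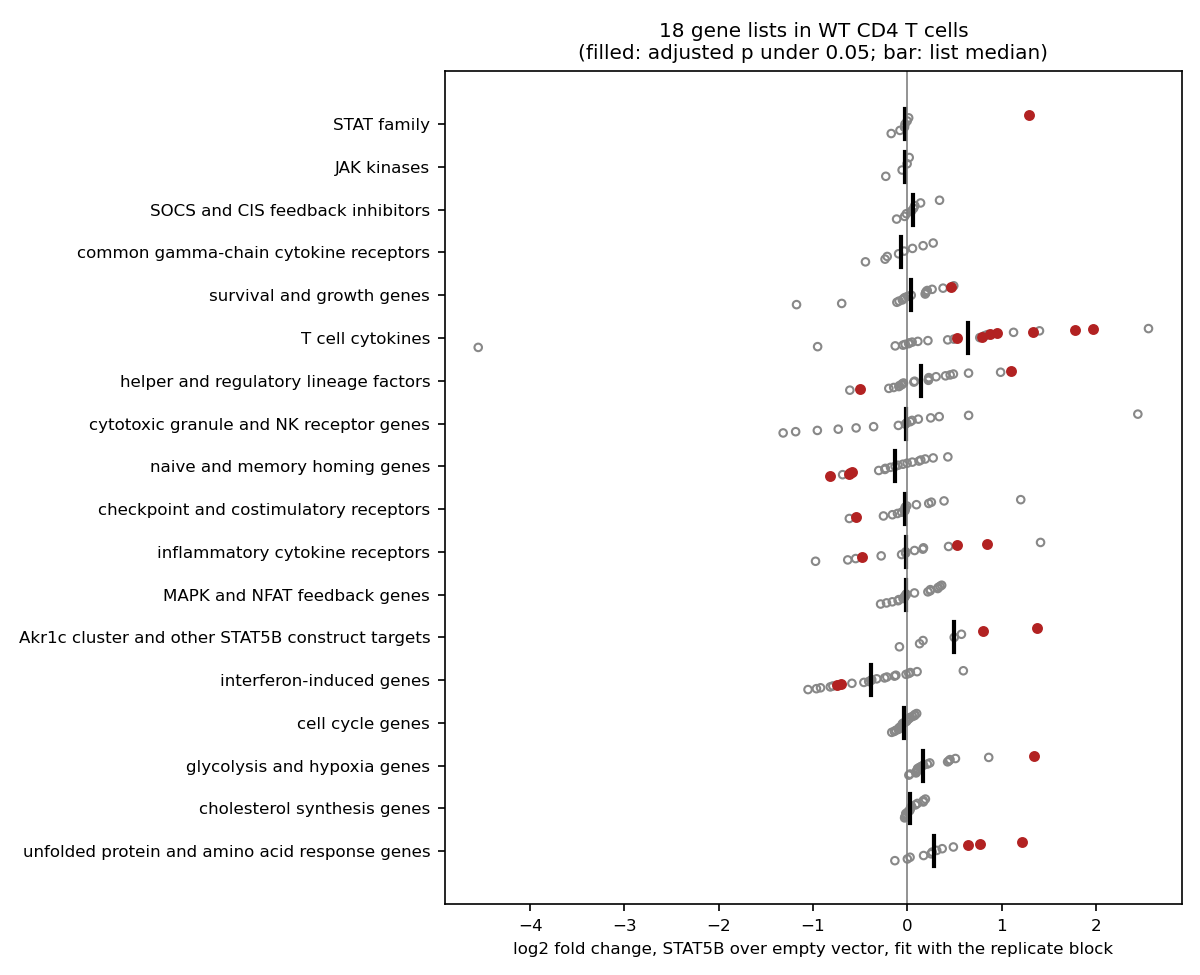
Log2 fold change with STAT5B in the fit with the block, for each member of 18 gene lists. Filled points have an adjusted p under 0.05 and bars are list medians. T cell cytokines hold 7 filled points, all above 0, and naive and memory homing genes hold 4, all below 0.

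The feedback inhibitors and the IL-2 receptor, known direct targets, did not pass. Socs2 (chr10:95385362-95417180, minus strand) was at 297, 319 and 193 CPM with the empty vector and at 381, 398 and 245 CPM with STAT5B. It was higher at each number by a ratio of 1.25 to 1.28, and the groups overlapped (log2 fold change 0.34 ± 0.10, SE, adjusted p = 0.158, block). Cish (chr9:107296026-107302784, plus strand) was at 362, 499 and 292 CPM and at 408, 491 and 304 CPM, with a log2 fold change of 0.07 ± 0.13 (SE, block). Il2ra was at 1846, 1929 and 1240 CPM and at 1871, 2259 and 1483 CPM (0.17 ± 0.10, SE, block). No member of the 8 SOCS and CIS genes, the 4 JAK kinases or the 8 receptors of the common gamma chain family passed in either fit. Slc3a2, the heavy chain of amino acid transporters, was at 107, 125 and 99.0 CPM and at 134, 137 and 108 CPM, and did not pass.

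The same vector was compared in Stat5a/b-null cells to ask whether the response differs when resident STAT5 is missing. Stat5b was at 2.83, 5.53 and 9.82 CPM in null cells with the empty vector and at 369, 348 and 253 CPM with STAT5B. CPM of the null cells were scaled among the null libraries only. Socs2 was at 2.91, 5.68 and 7.50 CPM there without STAT5B and at 139, 131 and 86.6 CPM with it, so its level in null cells with the vector was under that of WT cells without it. The log2 fold change of Socs2 in WT cells minus that in null cells was -4.16 ± 0.41 (SE, adjusted p = 1.01e-06, no block). For Cish this difference was -3.13 ± 0.40 and for Il2ra -1.98 ± 0.32 (adjusted p = 9.6e-05 and 0.00294, no block).

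The interaction of background and vector called 22 of 21975 genes, 21 of them (0.0956%) with a lower value in WT cells. Stat5b itself is among the 21, an outcome set by the design, since null cells lack the resident gene. Leaving out single libraries gave 12 to 33 calls. The fewest came without the WT empty-vector library numbered 2 and the most without that numbered 3. Replicate numbers did not pair WT with null libraries: same-numbered libraries of the same vector correlated at -0.305 to 0.292, and the null libraries numbered 1 and 3 held both Xist and Ddx3y. With a block of its own in each background, 114 genes were called (0.519%), 92 lower and 22 higher in WT cells, and all 22 of the first fit were among them. Without the WT libraries numbered 3 that fit called 141. Igfbp4 went in opposite directions. In null cells it was at 23.5, 48.2 and 26.4 CPM with the empty vector and at 134, 216 and 110 CPM with STAT5B, a log2 fold change of 2.23 ± 0.32, and the WT value minus it was -3.31 ± 0.47 (SE, adjusted p = 0.000369, no block). Ifit1bl1, of the interferon-induced Ifit family and named after its values were seen, went from 26.8, 34.8 and 8.04 CPM to 13.3, 11.8 and 6.01 CPM in WT cells and was called lower there with the block (log2 fold change -1.04 ± 0.25, SE, adjusted p = 0.0448). In null cells its log2 fold change was 2.87, and the WT value minus it was -4.06 ± 0.72 (SE, adjusted p = 0.00935, no block). Itgb3, an integrin chain also named after its values were seen, had log2 fold changes of -0.94 in WT and 0.86 in null cells, under the fold minimum in each, and the difference of -1.82 was called. Bcl6, a transcriptional repressor that drives follicular helper T cell differentiation, was the single gene with a higher value in WT cells in the first fit, and 7 of the 12 removals of a single library left no gene called higher there (the empty-vector libraries numbered 2 and 3 and the STAT5B libraries numbered 1 and 2 in null cells, and the empty-vector libraries numbered 1 and 2 and the STAT5B library numbered 2 in WT cells). It was at 3.26, 3.16 and 7.34 CPM and at 5.91, 7.94 and 7.45 CPM in WT cells, where it did not pass, and at 26.4, 36.1 and 37.9 CPM and at 11.5, 9.72 and 14.0 CPM in null cells.

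Other genes did not pass for a difference between backgrounds without a block. Pyhin1 had log2 fold changes of -1.20 in WT and -1.23 in null cells, and the difference was 0.02 ± 0.35 (SE, no block). Lta had log2 fold changes of 0.99 in WT and 2.56 in null cells without the block, and the difference of -1.54 passed (adjusted p = 0.00351) only with the blocks. For H19 the difference was 2.85 ± 2.78 (SE, no block), and its levels in null cells were near 0, at 0.0357 to 0.121 CPM with the empty vector and 0.122 to 0.724 CPM with STAT5B. Irf8 was at 32.9, 51.5 and 157 CPM and at 85.0, 96.7 and 116 CPM in null cells, where the groups overlapped.

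Of the genes tested in both backgrounds, 72 were called higher (0.367%) and 24 called lower (0.122%) in null cells without a block. In WT cells 56 of the 72 had a log2 fold change above 0 (47.1% of all genes, no block), with a median of 0.18 against 2.08 in null cells, and 6 were called higher with the block, against 0.380% of all genes. These were Acsl6, Il3, Nppc, Sema3b, Shroom3 and Stat5b, the gene that the vector carries. The 72 genes were chosen by their fold in null cells, which raises their median there. The medians describe the sets and add no test. Of the 24, 19 were below 0 in WT cells (52.9% of all genes), with a median of -0.35, and 2 were called lower with the block (Pydc3 and Pyhin1), against 0.0390% of all genes. With the block in null cells as well, 130 were called higher there (0.662%), of which 97 were above 0 and 12 called higher in WT cells. Another 74 were called lower there (0.377%), of which 59 were below 0 and 2 called lower in WT cells. Turned around, of the 78 genes called higher in WT cells with the block, 65 were above 0 in null cells (50.6% of all genes tested in both) with a median of 0.76. Of the 78, 6 were called higher there without a block (0.367% of all genes tested in both) and 12 with it (0.662%). Their median in WT cells, where they were chosen, was 1.65 (block). Of the 8 genes called lower in WT cells with the block, 5 were below 0 in null cells, with a median of -0.45. Over all genes tested in both, 50.6% were above 0 there, so 5 of 8 below 0 is not far from the share of all genes. Without a block 2 of the 8 were called lower there (0.122% of all genes tested in both), and 2 with it (0.377%).

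**Figure D4:**
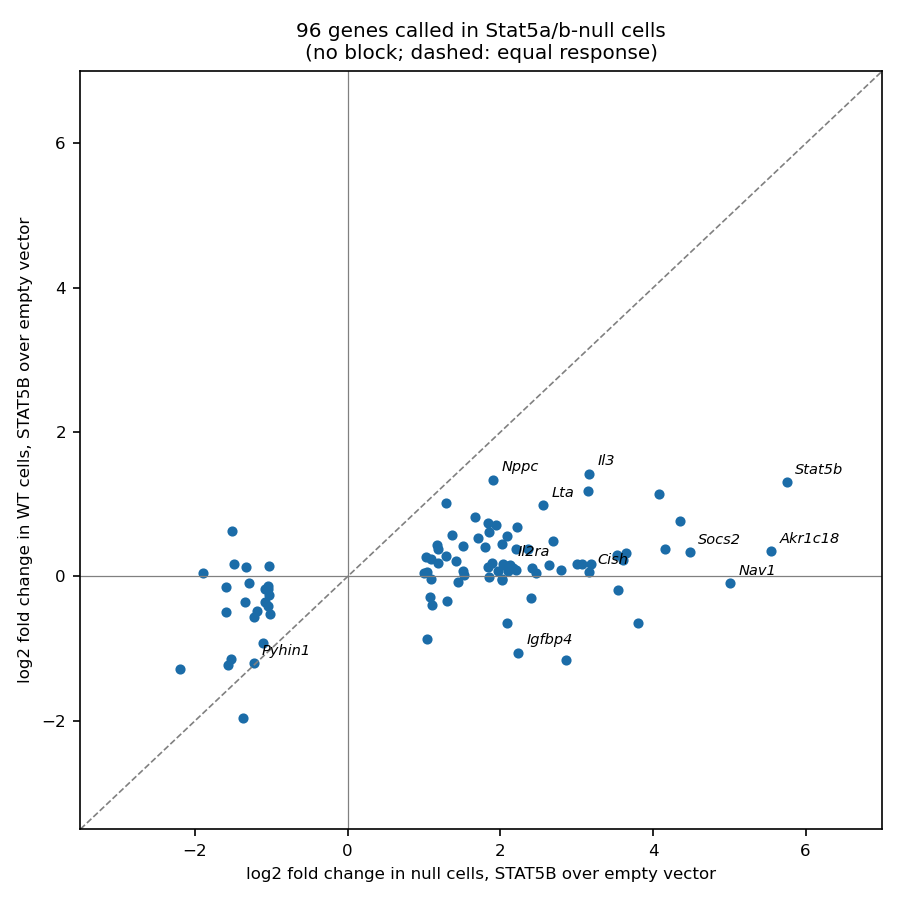
Log2 fold change of STAT5B over the empty vector in null cells (horizontal) and WT cells (vertical), without a block, for the 72 genes called higher and 24 called lower in null cells and tested in both. The dashed line marks an equal response. Socs2, Cish, Akr1c18 and Nav1 lie far below the line near 0 in WT cells, and Igfbp4 lies below 0 in WT cells.

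The STAT5B vector was next compared with the Y665H vector in WT cells, which gave a like amount of Stat5b RNA (418, 514 and 514 CPM, log2 difference -0.0001 ± 0.10, SE, block). Without the block only H19 was called, 1 of 20509 genes (0.00488%), and 327 had an unadjusted p under 0.05. That call was lost with filterByExpr. It was also lost without the STAT5B library numbered 1 or 2 or the Y665H library numbered 2 or 3. With the block 16 were called (0.0780%), all higher with native STAT5B and all among the 78: Alox15, Atf3, Batf3, Cdhr3, Coro6, Fam198a, Fes, Gm4926, H19, Hhex, Myh11, Ntrk3, Pkib, S1pr3, Sema7a and Trim71. Without number 3 the block gave 60 calls, without number 2 it gave 7 and without number 1 it gave 19. H19 was at 2.40, 0.580 and 0.312 CPM with Y665H, a log2 difference of 4.28 ± 0.37 (SE, adjusted p = 2.94e-06, block). All 3 Y665H libraries lay below the lowest STAT5B library. This comparison and the one with the empty vector share the STAT5B libraries, and their directions are not independent. Lta, at 304, 263 and 109 CPM with Y665H, differed from native STAT5B by 0.70 ± 0.11 (SE, adjusted p = 0.00387, block). Igfbp4 was at 281, 525 and 350 CPM with Y665H and did not differ from STAT5B past the threshold (adjusted p = 0.174, block). Over all vectors, H19 was at 61.7 to 110 CPM with N642H and 99.5 to 112 CPM with Y665F, both above the native STAT5B range, and Lta at 393 to 1036 CPM and 402 to 927 CPM.

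**Figure D5:**
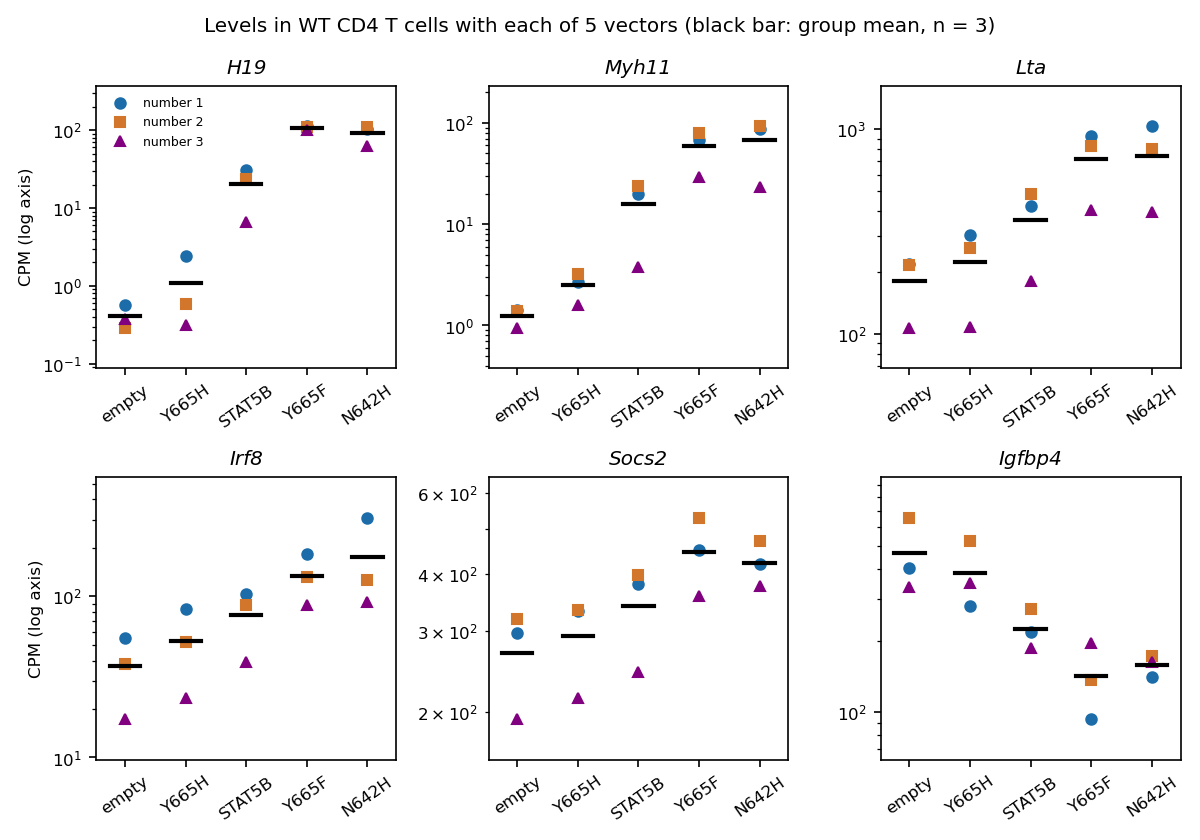
Level of 6 genes in CPM on a log axis in WT cells with each of 5 vectors, by number, with group means as black bars (n = 3). Means of H19, Myh11, Lta, Irf8 and Socs2 with native STAT5B lie between those with Y665H and those with Y665F and N642H, and the mean of Igfbp4 lies below that with Y665H and above those with Y665F and N642H.

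Promoters of Irf8, Lta, Pkib and Cish are shown because the first 3 rose and hold the element of STAT proteins near the start, while Cish holds it and did not pass. RefSeq promoter windows (GRCm38.p6, 250 bases before to 50 after each start) matched 56 of the 78 genes called higher and 5 of the 8 called lower by symbol. The motif TTCNNNGAA, its own reverse complement, so that both strands are covered, occurred in 11 of the 56 (19.6%) and in 0 of the 5, against 9.05% of the 15142 tested genes with a window and 8.30% of all 32851 windows. A match says only that the letters are there. Irf8 and Pkib each have another RefSeq window, at a later start, with no match, which is not printed. The 250 bases before the start read as follows, 5′ to 3′ on the gene's strand, with matches in capitals.
Lta (chr17:35205352-35205601, minus strand): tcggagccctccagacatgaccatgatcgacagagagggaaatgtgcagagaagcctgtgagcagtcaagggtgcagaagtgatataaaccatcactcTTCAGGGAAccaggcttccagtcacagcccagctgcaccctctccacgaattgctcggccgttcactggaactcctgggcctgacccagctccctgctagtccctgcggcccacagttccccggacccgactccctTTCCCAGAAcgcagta
Irf8 (chr8:120736108-120736357, plus strand): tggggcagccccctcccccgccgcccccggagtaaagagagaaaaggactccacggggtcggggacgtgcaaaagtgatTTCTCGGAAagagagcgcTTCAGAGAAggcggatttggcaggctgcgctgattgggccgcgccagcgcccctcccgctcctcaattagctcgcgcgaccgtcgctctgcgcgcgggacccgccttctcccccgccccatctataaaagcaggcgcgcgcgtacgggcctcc
Pkib (chr10:57631731-57631980, plus strand): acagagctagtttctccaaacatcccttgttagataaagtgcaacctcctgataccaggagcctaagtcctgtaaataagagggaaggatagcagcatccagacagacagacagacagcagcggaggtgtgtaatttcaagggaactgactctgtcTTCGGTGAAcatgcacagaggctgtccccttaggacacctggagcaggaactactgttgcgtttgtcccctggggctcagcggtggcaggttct
Cish, around its start (chr9:107296654-107296683, plus strand): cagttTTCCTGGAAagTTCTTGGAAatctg
Counted from the start, with the first transcribed base as 1, the matches begin at -152 and -16 in Lta, at -171 and -153 in Irf8, at -94 in Pkib and at 1 and 12 in Cish.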

How the data were processed

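Total RNA of sorted CD4+ T cells was sequenced in 30 libraries, of which 15 are WT. The authors trimmed reads with Trimmomatic 0.36, aligned them to mm10 with STAR and counted them per gene with HTSeq 0.9.1. The deposited values are raw counts, 24421 genes by symbol. The 5 closing lines for reads without a gene held 28.8 to 34.7% of reads in the 6 libraries and were left out. Whether counting used strand is not given in the sources used here, so reads of Atf3, Bcl6, Cd27, Cish, Dnaaf3, Foxp3, H19, Il12rb2, Il27ra, Irf7, Ms4a4c, Nav1, Plce1, Rai14, Rasgrp2, Satb1, Sema6d, Stat5a, Trim71 and Xist may include those of overlapping genes on the other strand.

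The 15 WT libraries (5 vectors, 3 each) were fitted together in R 4.3.3 with edgeR 4.0.16 (TMM, glmQLFit, glmQLFTest, genes with at least 10 reads, Benjamini-Hochberg over all genes), and all 30 CD4+ libraries for the interaction. Called genes had an adjusted p under 0.05 and more than a 2-fold difference. SE is the log2 fold change over the square root of F. CPM are TMM-scaled. Same-numbered WT libraries correlated above 0.1 in 30 of 30 pairs (median 0.635, 11338 genes), in deviations from group means. That, with the shared Xist and Ddx3y pattern, is where the pairing comes from. Named genes are 8 the study names, up to 15 rises and 15 falls with a mean of at least 1 CPM and no overlap of libraries, and in each list every called member or otherwise up to 4. As fewer than 10 were called without the block, the second part was applied to calls with it. Members, lists and tests were chosen with earlier results of these data known. Batf3, Sema7a, Pkib, Pydc3, Lif, Ccl3, Ccl4, Nav1, Bcl6, Kcnj8, Itgb3, Ifit1bl1, Ifitm1, Ifitm3 and Ubd were added after their values were seen. Gene positions are from GENCODE vM21 (GRCm38, the same assembly as mm10). Alternatives were RLE factors, filterByExpr, no filter, DESeq2 1.42.0, a residual factor, no fold minimum, the 6 libraries alone, the block, and leaving out libraries or numbers. A member of the homing list is not reported here by name.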

Additional observations from a re-analysis of the deposited data

Results flagged for a closer look

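The response to STAT5B differed between WT and Stat5a/b-null cells for 11 of the named genes by the interaction without a block (edgeR, log2 fold change in WT cells minus that in null cells, adjusted over all genes). The difference was -4.46 for Stat5b itself, an outcome set by the design, since the gene is deleted in null cells and intact in WT cells. It was -4.16 for Socs2, -3.13 for Cish and -1.98 for Il2ra. It was -3.31 for Igfbp4 and -5.22 for Akr1c18, which encodes an enzyme of progesterone breakdown. Among genes named after their values were seen it was -5.12 for Nav1, -3.79 for Kcnj8, -4.06 for Ifit1bl1, -1.82 for Itgb3 and 2.12 for Bcl6, a call lost in at least 7 of the 12 removals of a single library. Groups of 3 libraries were not tested for single outlying libraries.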

How the results depend on the processing

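Without the replicate block, the count of genes called for STAT5B against the empty vector was 2, and it stayed 2 with RLE factors, filterByExpr or no filter. It was 43 with a residual factor, 13 with DESeq2, 0 with the 6 libraries alone by edgeR (534 at an unadjusted p under 0.05) and 2 to 5 on leaving out single libraries, 5 being without the STAT5B library numbered 3. With the replicate block it was 86, with no fold minimum 223 and with the 6 libraries alone 120, and leaving out number 1, 2 or 3 gave 44, 26 or 152. Combined with the block after seeing the data, RLE factors gave 78, filterByExpr 64 and DESeq2 94. All 86 genes kept their sign in every one of these fits. For Y665H the count was 1 and became 16 with the replicate block, 7 with a residual factor, 2 with DESeq2, 0 with filterByExpr and 0 to 2 on leaving out single libraries, 0 being without the STAT5B library numbered 1 or 2 or the Y665H library numbered 2 or 3. Leaving out numbers under the block, added after seeing the data, gave 19, 7 and 60. For WT against null cells the count of 22 became 55 with the replicate block, 114 with a replicate block in each background (141 without WT number 3, added after seeing the data), 36 with a residual factor, 47 with DESeq2 and 12 to 33 on leaving out single libraries, 12 and 33 being without the WT empty-vector libraries numbered 2 and 3 and 14 without either null library numbered 2. The cause of these differences was not tested. The calls of Stat5b (log2 fold change 1.30) and H19 (5.65) were lost with the 6 libraries alone. Genes that did not pass and lay near 0 changed sign, namely Stat5a with the block and filterByExpr (-0.000964) or the block without number 1 (-0.020) or 3 (-0.012) and Nav1 with the block without number 1 (0.16). On leaving out single libraries their log2 fold changes ran from -0.081 to 0.081 for Stat5a, -0.12 to 0.29 for Cish, -0.022 to 0.29 for Il2ra and -0.27 to 0.11 for Nav1. The Stat5b level of 247% was 231 to 268% on leaving out libraries and 246% as the mean of the 3 within-number ratios (exact sign-flip test, p = 0.25, the smallest that 3 pairs allow).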
